A study of Homo sapiens with 6 samples.

Results

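Ribosomal protein genes are described here as a housekeeping reference on 6 expression arrays of RKO cells, a long-established line from a human colon carcinoma. They were all the probe sets whose RefSeq gene symbol begins with RPL or RPS followed by a digit or P. This gave 51 of the 1259 probe sets, standing for 41 of the 927 genes named in the table, 30 of the large ribosomal subunit and 11 of the small subunit. No symbol of an S6 kinase or another protein that only shares the name was among them. RKO C2 is a population grown from 1 clone of the line. RKO C2 F3 was taken from RKO C2 by fluorescence-activated sorting for cells low in u-PAR, the urokinase plasminogen activator receptor, and whether F3 also came from 1 clone differs between the labels. Each population had 3 arrays, numbered 1 to 3 in both, and no other treatment or genotype is given. The study asked which enzyme of glycosylation F3 lacks, a question that does not turn on ribosomal protein genes.

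A ribosome joins ribosomal RNAs with a set of ribosomal proteins, and growing cells make the messenger RNAs of these proteins in large and coordinated amounts. Most of these messenger RNAs start with an unbroken stretch of pyrimidines, the 5′ terminal oligopyrimidine (TOP) tract, through which the mTOR pathway and the RNA-binding protein LARP1 set their translation. In cancer cells, transcription of these genes and assembly of ribosomes are known to follow growth rate. They are often used as reference genes on arrays because their signals are high and steady.

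The start of the genes is the feature that the members share and that did not choose them. RefSeq promoter windows (GRCh38.p14) were found for 33 of the 41 genes. In 27 of these 33 genes, or 81.8%, an unbroken run of at least 8 C or T bases on the transcribed strand touched the 5 bases on either side of the annotated start. Among all genes of the same promoter table the share was 13.7%. The windows below are of genes among those with the highest or lowest probe set level, the most negative or positive change, or the smallest spread (RPS3). RPL3 is shown because it lacks such a run. Not every gene at these ends is printed, and RPL32, among the most negative changes, also lacked a run. Each gives the 40 bases before and the 20 bases from the annotated start, 5′ to 3′, with the run in capitals.
RPL41, chr12:56116593-56116652, plus strand: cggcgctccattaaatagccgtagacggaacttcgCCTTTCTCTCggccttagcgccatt
RPS3, chr11:75399478-75399537, plus strand: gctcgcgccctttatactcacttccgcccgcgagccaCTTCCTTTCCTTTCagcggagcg
RPS6, chr9:19380217-19380276, minus strand: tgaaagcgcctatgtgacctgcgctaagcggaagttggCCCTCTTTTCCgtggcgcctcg
RPL31, chr2:101002249-101002308, plus strand: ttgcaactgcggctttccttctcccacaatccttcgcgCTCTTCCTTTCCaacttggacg
RPL28, chr19:55385892-55385951, plus strand: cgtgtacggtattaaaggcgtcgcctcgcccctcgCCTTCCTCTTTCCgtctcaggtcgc
RPL27A, chr11:8682752-8682811, plus strand: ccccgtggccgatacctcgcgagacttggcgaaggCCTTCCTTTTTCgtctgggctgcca
RPL3, chr22:39319604-39319663, minus strand: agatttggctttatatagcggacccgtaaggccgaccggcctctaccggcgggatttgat

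The run was 10 bases long in RPL41 and 12 in RPL27A, the members with the highest and the lowest probe set level, so the 2 ends of the range of levels did not differ in having it. The longest run, of 25 bases, belonged to RPL7A. RPL3, RPL4, RPL6, RPL9, RPL27 and RPL32 had no run of 8 bases that touched the searched bases around any of their annotated starts. In RPL4, RPL9 and RPL27 a run of at least 8 C or T bases began a little further downstream, and in RPL32 one lay further upstream. The count therefore depends on the annotated start and the width searched, and does not show that these genes lack a TOP tract. The letters CCGGAAG, the core of sites for ETS-family factors such as GABPA, were searched on either strand of the whole RefSeq entries, which run from 250 bases before to 50 bases after the start and so beyond the stretches printed above. They were found for 14 of the 33 genes, or 42.4%, against 12.2% of all genes of the table. Read from the other strand, CCGGAAG can share letters with the end of a pyrimidine run, so the 2 counts are not independent. These matches describe letters of the entries, need not lie in the printed stretches, and show no binding.

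The ribosomal protein probe sets took up most of the top of the table. They made up 21 of the 25 probe sets with the highest mean over the 6 arrays and 38 of the 50 highest, and 41 of the 51 had a mean log2 expression of at least 12, a level chosen after the values were seen. The deposited log2 values run from 2.08 to 14.1 over the whole table. The median over the members was 13.24, 13.25 and 13.32 on C2 arrays 1, 2 and 3, and 13.22, 13.27 and 13.34 on F3 arrays 1, 2 and 3. The populations overlapped on this measure, and in both the array numbered 3 was the highest and the array numbered 1 the lowest. Probes differ in how strongly they bind, so a probe set's level is not a transcript's abundance, and no order of the genes was read from it.

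Among the members, RPL41 and RPL8 had the highest probe set levels. RPL41, the smallest protein of the ribosome, had log2 values of 14.12, 14.10 and 14.13 in C2 and 14.12, 14.13 and 14.14 in F3. RPL8, which lies near the peptidyl transferase centre, had 13.94, 13.92 and 13.94 in C2 and 13.92, 13.94 and 13.93 in F3. The populations overlapped for both genes. The log2 change, F3 minus C2, was 0.0082 for RPL41 (95% interval -0.10 to 0.12) and -0.0027 for RPL8 (-0.11 to 0.11), from limma fitted on the whole table.

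At the other end, 10 probe sets of 9 genes had a mean under 12. They were RPL27A, RPL37, RPL21, RPL32, both probe sets of RPL31, RPL28, RPL34, RPL38 and 1 of the 2 probe sets of RPL23, and all belonged to the large subunit. RPL27A and RPL37 stood lowest, at mean log2 levels of 5.22 and 5.41, near the median of 5.50 of all probe sets. The 16 probe sets of the small subunit all lay between 12.2 and 13.8.

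Genes with several probe sets show how far such levels depend on the probes. Of the 41 genes, 9 had more than 1 probe set. The probe sets of RPL31 had mean levels of 8.16 and 10.4, which is 2.19 log2 units apart, and those of RPL23 lay 1.26 apart. For RPL13A, RPS6, RPS27A, RPL35 and RPS3 the gap between both probe sets ran from 0.740 down to 0.029. The changes between populations were much closer, with gaps within a gene from 0.0027 in RPS27A to 0.089 in RPL31. Of the 51 probe sets, 15 carry the suffix s_at and 11 the suffix x_at, which on Affymetrix arrays mark probes shared between transcripts and probes similar to other sequences. Ribosomal protein genes have many processed pseudogenes, and how much signal came from such copies was not tested.

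**Figure D1:**
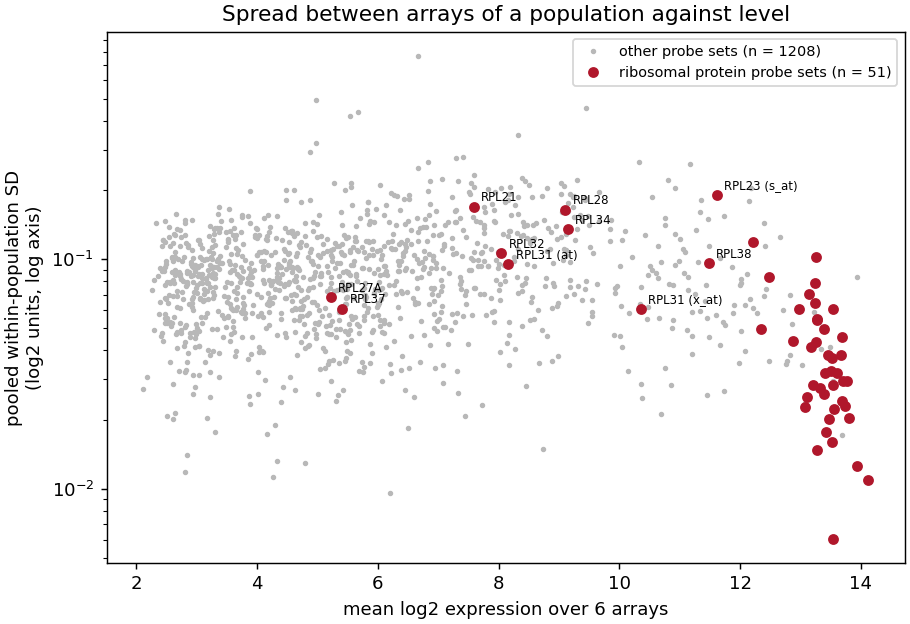
Pooled within-population SD (log2 units, log axis) against mean log2 expression over the 6 arrays, for the 51 ribosomal protein probe sets (red) and the 1208 other probe sets (grey). Most red points lie at the bright, steady corner, with a median SD of 0.041, while the 10 with a mean under 12 are named and have a median SD of 0.10.

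Arrays of 1 population differed little in these genes. The median within-population SD was 0.041 on the log2 scale over the 51 members, against 0.083 over all probe sets and 0.090 over the 639 other probe sets within the members' range of levels. Among bright probe sets, with a mean of at least 12, the median SD was 0.032 for 41 ribosomal protein probe sets and 0.061 for 34 others. Of the others, 2 of these 34 and 87 of the 639 had no gene name, so ribosomal protein genes could be among them. FAU, which encodes a ribosomal protein under another symbol, and the ribosome-associated protein RACK1 are also among the 34. The members in this class were also brighter, with a median level of 13.4 against 12.5, and the part of level in the difference was not tested. Members with a mean under 12 had a median SD of 0.10, so low spread was not shared by all members.

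The steadiest member was the x_at probe set of RPS3, a small-subunit protein at the entry of the mRNA channel, with a within-population SD of 0.0061. Its log2 values were 13.54, 13.53 and 13.55 in C2 and 13.53, 13.52 and 13.52 in F3. The 3 F3 arrays lay below the 3 C2 arrays, by a log2 change of -0.018 (95% interval -0.13 to 0.09), and limma did not call it (adjusted p = 0.998). The fit moves very small variances towards those of the rest of the table, so the SE of 0.047 is larger than these 6 values alone would give. RPL41 was next, with an SD of 0.011.

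The most variable members were the s_at probe set of RPL23 and the single probe set of RPL21. RPL23, a large-subunit protein that also binds MDM2, had log2 values of 11.55, 11.48 and 11.81 in C2 and 11.41, 11.66 and 11.81 in F3, with an SD of 0.19. RPL21 had 7.52, 7.56 and 7.70 in C2 and 7.34, 7.61 and 7.78 in F3, with an SD of 0.17. In both genes the arrays numbered 3 were highest in each population and the populations overlapped. Their log2 changes were 0.010 (95% interval -0.26 to 0.28) and -0.014 (-0.26 to 0.23), so that these 2 probe sets leave room for wider differences than the bright ones do.

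**Figure D2:**
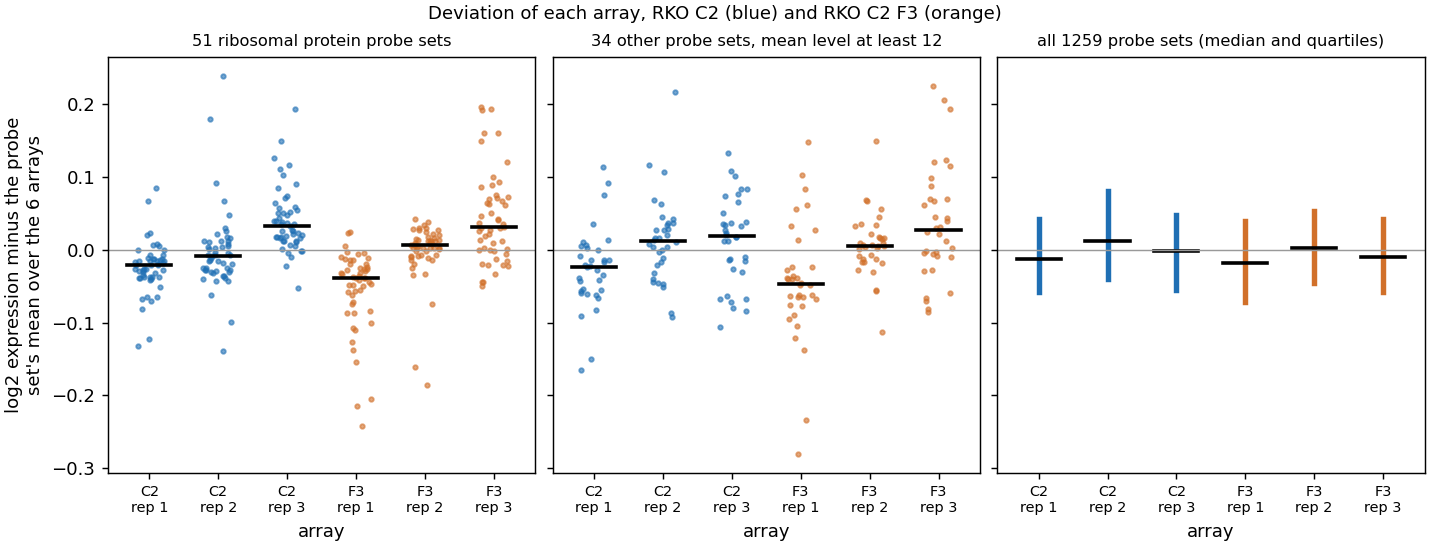
Log2 expression minus each probe set's mean over the 6 arrays, by array, for the 51 ribosomal protein probe sets, the 34 other probe sets with a mean of at least 12, and all 1259 (bars from the lower to the upper quartile). Points are probe sets and black lines are medians. Both arrays numbered 1 lie below 0 in the first and second panels, and both arrays numbered 3 lie above 0.

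The members deviated together from array to array, and these deviations followed the replicate number more than the population. On C2 array 1 only 7 of 51 probe sets lay above their own mean over the 6 arrays, and on F3 array 1 only 3 did. On C2 array 3 and F3 array 3 the numbers were 45 and 38, and on the arrays numbered 2 they were 20 in C2 and 34 in F3. For 39 members the lowest of the 6 values was on an array numbered 1, and for 42 the highest was on an array numbered 3. Over all 1259 probe sets, C2 array 1 was lowest for 201 and F3 array 1 for 327, and C2 array 3 was highest for 164 and F3 array 3 for 189. For the 34 others with a mean of at least 12, these counts were 6, 17, 6 and 14. The members' median deviations were small, at -0.021 and -0.039 on the arrays numbered 1 and 0.033 and 0.031 on those numbered 3. This pattern is that of the deposited values. After repeated quantile normalization the members' median level lay between 13.271 and 13.281 on each of the 6 arrays.

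Other bright probe sets moved in the same direction, but less uniformly. Over the 34 others with a mean of at least 12, the median deviations were -0.023 and -0.047 on the arrays numbered 1 and 0.019 and 0.027 on those numbered 3. Their share above the own mean was 26.5% and 23.5% on the arrays numbered 1 and 61.8% on each numbered 3. For the members it was 13.7% and 5.88%, and 88.2% and 74.5%. Over all 1259 probe sets they were between -0.018 and 0.012, with a share above the own mean between 41.8% and 56.7% on each array. As other bright probe sets shared its direction, the movement was not called particular to ribosomal protein genes. In the labels, same-numbered arrays carry a common suffix, and its part in this pattern was not tested. In the fit blocked on replicate number the members' median residual SD went from 0.041 to 0.026, and the SE of the population change was lower for 44 of 51, or 86.3%. Over all probe sets the residual SD went from 0.083 to 0.066 and the SE was lower for 83.6%.

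**Figure D3:**
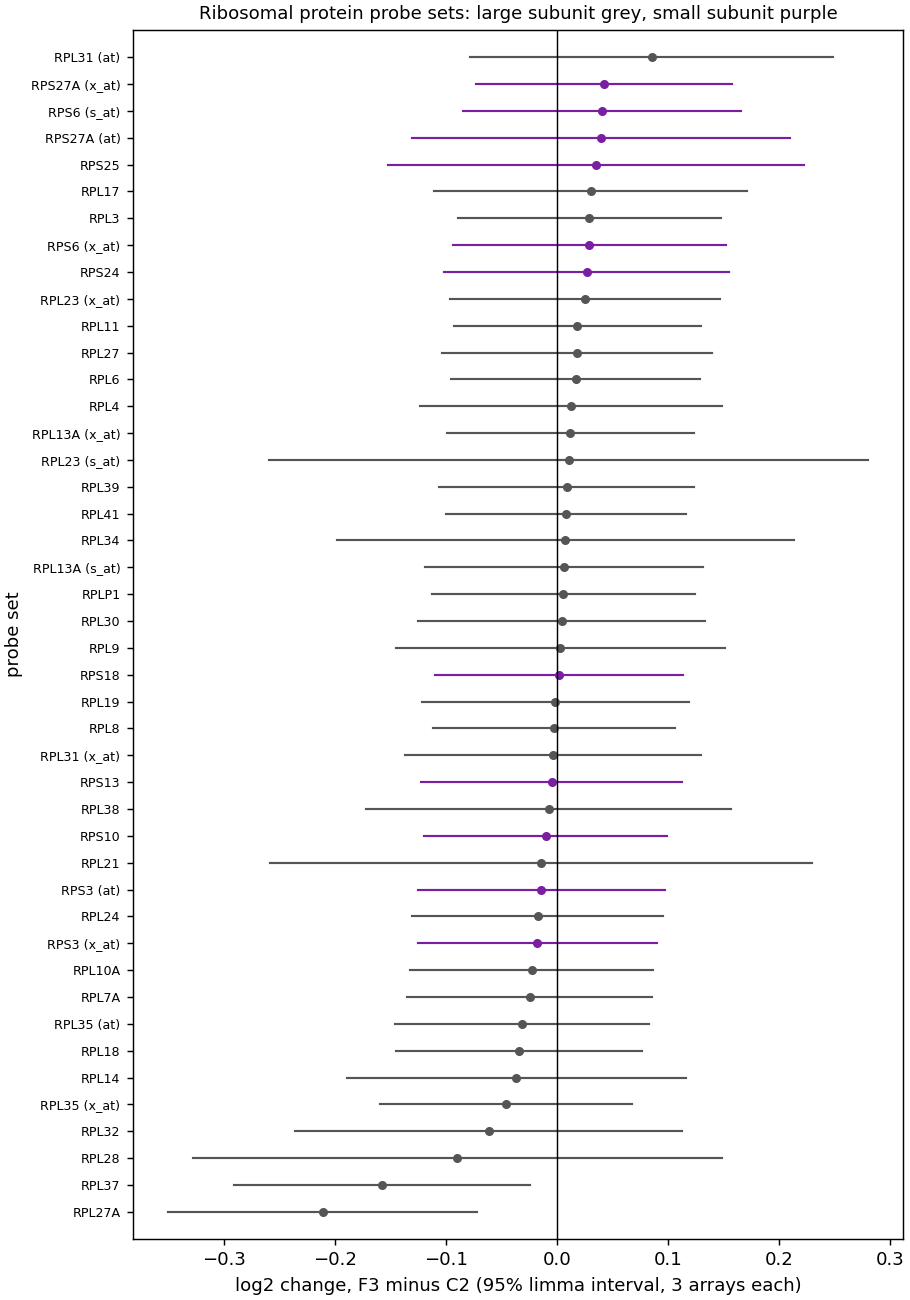
Log2 change of 44 of the 51 ribosomal protein probe sets, F3 minus C2, with its 95% limma interval (3 arrays in each population; grey for the large subunit, purple for the small). The intervals of 42 probe sets include 0, and those of RPL27A and RPL37 lie below it before any adjustment for the number of tests.

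None of the 51 ribosomal protein probe sets differed between F3 and C2 in limma at an adjusted p under 0.05, 0 higher and 0 lower, where 0.0794% of all probe sets passed. That share is a single probe set, PIGB, an enzyme of glycosylphosphatidylinositol anchor synthesis, at a log2 change of -0.87 (limma adjusted p = 0.013). Its call was lost when C2 array 2, C2 array 3 or F3 array 1 was left out. The adjusted p of the members ran from 0.731 to 0.998. At an unadjusted limma p under 0.05 there were 2 members, or 3.92%, against 5.4% of all probe sets. Both were lower in F3, where the share of all probe sets was 3.49%. Arrays of the 2 populations did not overlap for 5 members (RPL18, RPL27A, RPL37 and the x_at probe sets of RPL35 and RPS3), or 9.80%, against 10.3% of all probe sets. These are bulk samples, so a transcript held by fewer cells and a lower level in each cell cannot be told apart, and values relative to the other genes of an array do not show a shift of all RNA.

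The log2 change had a median of -0.0027 over the members and of -0.0064 over all probe sets, with 24 members positive and 27, or 52.9%, negative, against 54.6% negative among all probe sets. The median size of a member's change was 0.018, or 1.01-fold, against 0.047 over all probe sets. For 41 of the 51 members, or 80.4%, the whole 95% interval lay within 0.2 log2 units of 0, where 48.0% of all probe sets did so. Most members are far brighter than most probe sets, and the part of level in these differences was not tested. Among members with a mean of at least 12 no interval reached further than 0.22 from 0. In the pairs of arrays with the same number, the median difference over members was -0.020, 0.014 and 0.00020 for numbers 1, 2 and 3. It was negative for 39, 21 and 25 of the 51, so no direction was common to the 3 pairs.

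**Figure D4:**
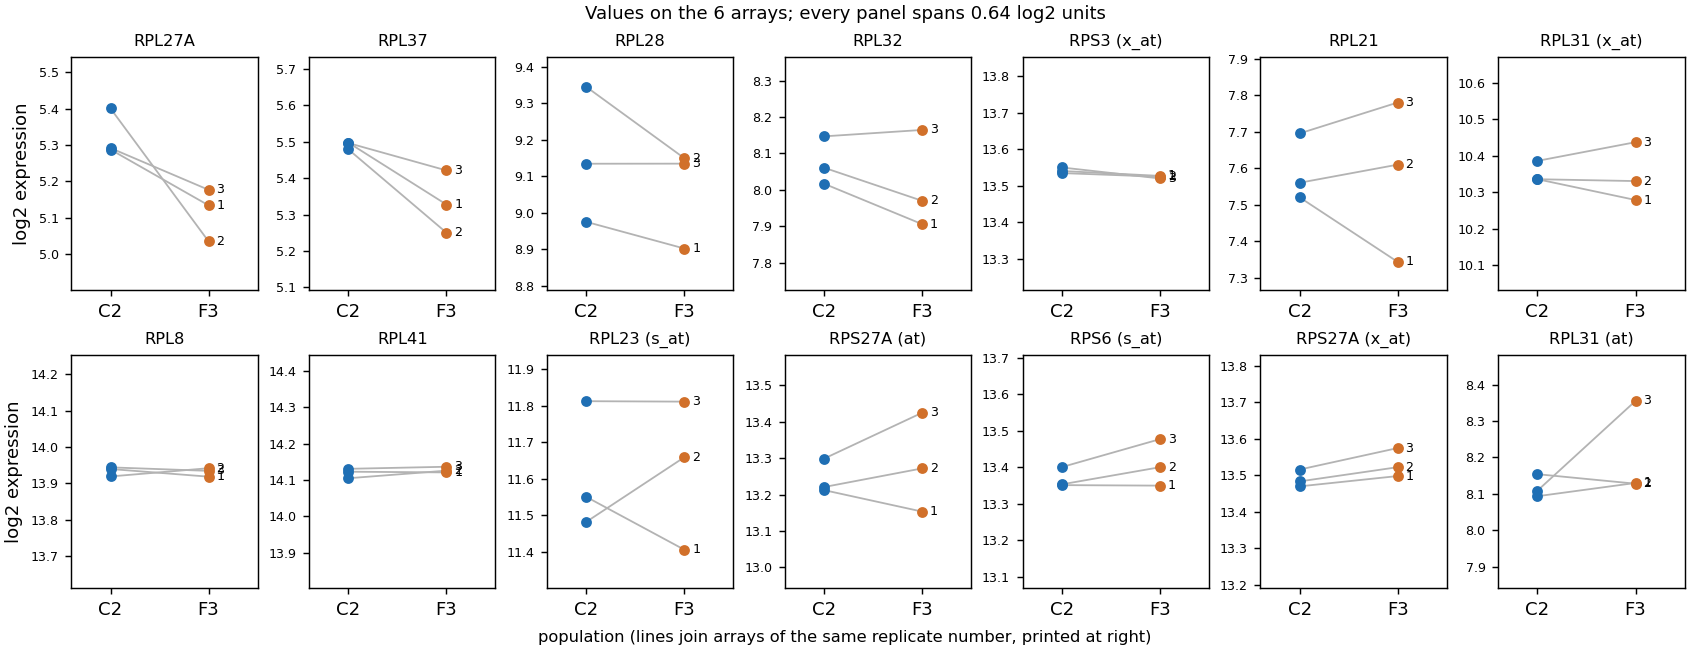
Log2 expression on the 6 arrays for the 14 ribosomal protein probe sets described singly, ordered by change, with C2 in blue and F3 in orange. Lines join arrays of the same replicate number, and every panel spans the same width. The panels of RPL27A and RPL37 show F3 below C2 in all 3 pairs, while RPL41, RPL8 and RPS3 are almost flat.

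In the large subunit (35 probe sets, change from -0.21 to 0.085, median -0.0015), RPL27A and RPL37 had the most negative changes. RPL27A had log2 values of 5.29, 5.40 and 5.29 in C2 and 5.13, 5.04 and 5.18 in F3. All 3 F3 arrays lay below all 3 C2 arrays, with means of 5.33 ± 0.06 and 5.12 ± 0.07 (SD, n = 3 each). The log2 change was -0.21 (SE 0.06), or 1.16-fold, with an unadjusted limma p of 0.0080 that did not pass (adjusted p = 0.73; 0.52 with the replicate block).

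RPL37, a zinc-binding protein of the large subunit, had log2 values of 5.50, 5.48 and 5.50 in C2 and 5.33, 5.25 and 5.42 in F3. The populations did not overlap here either. The log2 change was -0.16 (SE 0.06), with an unadjusted limma p of 0.026 and an adjusted p of 0.84. RPL27A and RPL37 were the 2 members with the lowest levels, and each was represented by a single probe set. Both levels lay below the median of 5.50 of all probe sets. Whether signals this low stand above background was not tested, so these changes may not be those of the 2 transcripts. Over single arrays left out, RPL27A ran from -0.24 to -0.17 and RPL37 from -0.20 to -0.12.

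RPL28 and RPL32 came next on the negative side, and both overlapped between populations. RPL28 had log2 values of 8.98, 9.35 and 9.13 in C2 and 8.90, 9.15 and 9.13 in F3, a log2 change of -0.090 (95% interval -0.33 to 0.15). Its negative sign rested on C2 array 2, without which the change was 0.0073. RPL32 had 8.02, 8.06 and 8.15 in C2 and 7.91, 7.97 and 8.16 in F3, a change of -0.061 (-0.24 to 0.11). In both genes F3 array 1 was the lowest of the 6. Leaving out 1 array in turn moved RPL32 between -0.14 and -0.0077.

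RPL31, a protein at the exit of the peptide tunnel, had the most positive change of all members, and its 2 probe sets did not share a sign. The probe set ending in at had log2 values of 8.09, 8.15 and 8.11 in C2 and 8.13, 8.13 and 8.36 in F3, a change of 0.085 (95% interval -0.08 to 0.25). Only F3 array 3 lay above all C2 arrays, and without it the change was 0.010. The x_at probe set had 10.34, 10.34 and 10.39 in C2 and 10.28, 10.33 and 10.44 in F3, a change of -0.0037 (-0.14 to 0.13). Both probe sets had their highest value on F3 array 3.

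The log2 changes of the remaining large-subunit probe sets lay between -0.046 (x_at of RPL35) and 0.030 (RPL17), and none passed. They cover the peptide exit tunnel (RPL4, RPL17, RPL19, RPL35 and RPL39), the region of the peptidyl transferase centre (RPL3), the L1 stalk (RPL10A), the acidic stalk that recruits translation factors (RPLP1), and RPL11, which with the 5S ribonucleoprotein binds MDM2. RPL13A, known also for its part in interferon-induced silencing of mRNAs, was at 0.0062 and 0.012 in its 2 probe sets. RPL38 was at -0.0074 and RPL34 at 0.0076. The others were RPL6, RPL7A, RPL9, RPL14, RPL18, RPL24, RPL27 and RPL30, with the second probe set of RPL23.

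The small subunit (16 probe sets of 11 genes) had a median log2 change of -0.0051, with 7 positive and 9 negative, and none passed. Its most positive members were RPS27A, which is made as a fusion with ubiquitin, and RPS6, the substrate of the S6 kinases. The x_at probe set of RPS27A had log2 values of 13.47, 13.48 and 13.52 in C2 and 13.50, 13.52 and 13.58 in F3, a change of 0.042 (95% interval -0.07 to 0.16). Its at probe set had 13.21, 13.22 and 13.30 in C2 and 13.15, 13.27 and 13.42 in F3, a change of 0.039 (-0.13 to 0.21). The populations overlapped for both, and the second turned to -0.031 without F3 array 3.

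The s_at probe set of RPS6 had log2 values of 13.35, 13.35 and 13.40 in C2 and 13.35, 13.40 and 13.48 in F3, a change of 0.041 (95% interval -0.08 to 0.17). Its x_at probe set was at 0.029. Without F3 array 3 the change of the first was 0.0067. RPS10 and RPS24, in which mutations cause Diamond-Blackfan anaemia, had changes of -0.010 and 0.027. RPS13, RPS18, RPS25 and both probe sets of RPS3 lay between -0.018 and 0.035.

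Lists of other genes give values to set beside the members. Of 52 genes of translation factors and ribosome-associated proteins, 10 were measured by 13 probe sets; 0 rose, 0 fell and 13 did not pass. Their median log2 change was -0.039, with 11 of 13 negative. EIF3C, a subunit of the initiation factor that binds the small subunit, led them in both probe sets, at -0.26 (SE 0.08) and -0.15 (SE 0.07). The adjusted p was 0.84 and 0.97, and in both probe sets the F3 arrays lay below the C2 arrays. RPN1, a subunit of the oligosaccharyltransferase at the translocon, was at -0.068, and the x_at probe set of EIF3F, of the same initiation factor as EIF3C, at -0.058.

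Of 60 other housekeeping genes, 12 were measured by 13 probe sets, and again 0 rose, 0 fell and 13 did not pass, with a median of -0.0087. GUSB, a lysosomal glucuronidase often used as a reference, had the smallest p, at -0.15 log2 units (SE 0.06; adjusted p of 0.84 in limma) and no overlap of the arrays. The actin regulator CFL1 was at 0.070 and 0.031 in its 2 probe sets, and in the first of them the F3 arrays lay above the C2 arrays. The glycolytic enzyme GPI was at -0.078 and the proteasome subunit PSMB2 at -0.053. The median within-population SD was 0.053 in this list and 0.062 in the translation list, against 0.041 for the ribosomal protein probe sets, and the lists differ in level.

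The ribosomal protein probe sets were also tried as a reference for centring the arrays. When each array was centred on its median over the 51 members, the amount taken off ran from -0.051 on F3 array 1 to 0.068 on F3 array 3. Before this, F3 array 3 already had the lowest median over all probe sets, at 5.475. The members' median SD went only from 0.0413 to 0.0408. The change of PIGB went from -0.87 to -0.88 and its limma adjusted p from 0.013 to 0.0029. The number of probe sets past the threshold went from 1 to 2, the second being LGALS3, which encodes galectin-3 (log2 -0.41 at limma adjusted p = 0.047, and -0.40 at 0.095 on the deposited values). The number at an unadjusted p under 0.05 went from 68 to 44. Centring on the members' median deviation from their own means took off -0.039 and 0.031 on these F3 arrays, and again PIGB (limma adjusted p = 0.011) and LGALS3 (adjusted p = 0.041) passed. With centring on the median of all probe sets only PIGB passed (limma adjusted p = 0.025), as with repeated quantile normalization (limma adjusted p = 0.017). The median change over all probe sets moved by about 0.01, from -0.0064 to -0.017, with centring on the members' median. With centring on their median deviation it was -0.0048.

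The table names few markers that define the line: of 11 epithelial and colon genes on a list only MUC1 and MUC2 were named, with mean log2 levels from 5.13 to 7.11. Of 9 fibroblast and endothelial genes 6 were named, between 2.30 and 7.05 with BGN the highest. Changes over both marker lists lay between -0.091 and 0.12. Any pair of arrays correlated across all probe sets with r from 0.9981 to 0.9992, a value across genes, which are not independent replicates. The precision is limited by the number of arrays.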

How the data were processed

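Per the labels' protocols, RNA was isolated with Trizol and converted to biotinylated cRNA for Affymetrix arrays. The authors deposited log2 values for each probe set on each array, made with RMA per the submitters' processing notes. RMA equalises the distributions of the arrays, so a shift shared by most genes would not be seen. Which RMA version, probe set definition and build were used is not given in the sources here.

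Probe sets were named by RefSeq accession without version through the RefSeq gene table of GRCh38.p14, which gave 1 symbol for 1043 of 1259. The other 216 stayed in the tests unnamed. Promoter sequences are from RefSeq (GRCh38.p14). F3 and C2 were compared on all probe sets with limma 3.58.1 (R 4.3.3; lmFit, eBayes), two-sided, and p-values were adjusted by Benjamini-Hochberg over the whole table (threshold 0.05). Separate cultures are not named in the labels, so the spread behind the p-values is that of these samples and may be technical. For F3 against C2, limma was tested on simulated data (1259 probe sets, 200 changed) and recovered 53.4% of 1.2-fold, 95.1% of 1.4-fold and 99.7% of 2-fold changes. The simulated errors were independent and shared no shift by replicate number. With 200 changed probe sets the adjustment is also milder than here, where 1 passed. These shares therefore do not give the recovery in the deposited values, where the largest rise, 0.64 log2 units, did not pass.

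Across all probe sets, the deviations of arrays with 1 number in common correlated with r = 0.524, 0.184 and 0.261, each over 0.1. A fit blocked on array number was therefore run as an alternative. Over the members alone, r was 0.651, 0.00683 and 0.374. Arrays of unlike number had r from -0.384 to 0.147 over all probe sets and from -0.489 to 0.249 over the members. For number 2 the members' r thus lay below that of some arrays of unlike number. The fit without the block is the main one, so intervals, SEs and p-values leave the pairing out unless the block is named.

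The members and lists were chosen with earlier results of these data known. By rule, values on all arrays are given for members with the most positive and negative changes (4 each), smallest p (3), highest and lowest level, largest and smallest SD (2 each), and genes with probe sets of unlike sign. From each of the lists of other genes, up to 4 with the smallest p are named, with PIGB. LGALS3 was named after its value was seen, and FAU and RACK1 for their place among the bright probe sets. Alternatives were the replicate block, other centrings and normalizations, dim probe sets left out, a variance trend with level, array weights, single arrays left out, another threshold, genes in place of probe sets and probe set type. Values of some single genes are not reported here, and they stay in the counts and medians.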

Additional observations from a re-analysis of the deposited data

How the results depend on the processing

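No ribosomal protein probe set passed the threshold in any of 19 alternatives in limma (0 in each, with 2 at an unadjusted p under 0.05 on the deposited values). The median change over the members stayed between -0.017 and 0.020 and their median SD between 0.027 and 0.047. The number of all probe sets past the threshold was 2 with the replicate block (PIGB and S100A10), 2 with arrays centred on the ribosomal protein median, 2 with arrays centred on the members' median deviation (chosen after the data were seen), 2 at an adjusted p under 0.10, 0 without both arrays of number 1 (chosen after the data were seen) and 0 to 2 with 1 array left out in turn (0 without C2 array 2, C2 array 3 or F3 array 1). The replicate block changed no call among the members. Centring on the members brought their median level on C2 array 3 and F3 array 3 to 13.274 by construction. Repeated quantile normalization gives every array the same distribution, and the members' medians on all arrays then lay between 13.271 and 13.281. In C2 the arrays numbered 1 and 3 were then both at 13.281. The order by array number in the deposited values was thus not kept. Changes near 0, none past the threshold, turned in sign under the settings that follow. Either centring moves every probe set by 1 shared amount, so those turns come from its construction, and the cause of the others was not tested. RPL8 with median centring was at 0.013, RPL21 at 0.0012 and the x_at probe set of RPL31 at 0.012. With quantile normalization RPL23 (s_at) was at -0.027 and RPL21 at 0.043, and with centring on the members RPL41 was at -0.0023 and RPL23 at -0.00015. Without both arrays of number 1, RPL8 was at 0.0065, RPL21 at 0.067 and RPL31 (x_at) at 0.023. Over single arrays left out RPL23 (s_at) ran from -0.083 to 0.12, RPL21 from -0.12 to 0.10, RPL28 from -0.18 to 0.0073, RPL8 from -0.010 to 0.0038, RPL31 (x_at) from -0.048 to 0.031 and RPS27A (at) from -0.031 to 0.10. Leaving out symbols that do not encode a ribosomal protein was not run, since there were none.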
